A study of Mus musculus with 295 samples.

Results

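The mice described here are the macrophage-rich and macrophage-poor fat samples of a mouse cross, taken from mice whose fat carried the Y-linked transcript Eif2s3y and had a low ratio of the epididymis transcript Gpx5. Of 295 mice with 1 array each, 105 had an Eif2s3y ratio above -0.6 and a Gpx5 ratio at or below -0.5 on the deposited scale. Gpx5 is an epididymal secretory gene, and the array of 1 mouse had no Gpx5 value. Mice at or below the Gpx5 limit are called mice without epididymis transcripts, a name that rests on this 1 gene. A macrophage score was computed for each of the 105 mice as the mean z-score of Adgre1, a surface receptor of mature macrophages, and Cd68, which encodes macrosialin. The 35 mice of the upper tertile are called macrophage-rich, the 35 of the lower tertile macrophage-poor, and the 35 between them the middle tertile. That is 70 compared mice of 295. The score chose the sides, so a difference between them is an association across mice measured on the same arrays, not the effect of a treatment.

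All mice were F2 offspring of the inbred strains C57BL/6J and C3H/HeJ, all lacked ApoE, and all ate a high-fat Western diet between weeks 8 and 24 of age. No mouse with ApoE and no mouse on another diet entered the arrays, so every comparison is within an ApoE-null, diet-fed cross. Both sexes were used, but the labels give no sex, genotype, body weight or fat depot for a mouse, and the sets are named by their Eif2s3y level. Each mouse was compared on its own array with a pool to which every RNA gave an equal portion, and every value below is a log2 ratio of a mouse to that pool. The deposited ratios carry no stated base and were read as base 10, so fold sizes and log2 values rest on that reading, while the calls do not. In a pool of equal portions, a transcript carried by 152 of 294 mice would stand 1.93-fold above the pool in its carriers. The median Eif2s3y ratio of those mice was 2.40 read as base 10, 1.46 as natural log and 1.30 as base 2, a check added after the data were seen that does not settle the base. Ratios to a pool give no absolute level, so the tissue label could not be checked by the level of fat markers.

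Macrophages of fat are phagocytes that settle there from the blood or renew in place, and their number rises in obese fat. They clear dead adipocytes and free lipid, which calls on their lysosomes, and they release cytokines such as Tnf that act on the insulin response of adipocytes. Resident macrophages along vessels carry scavenger receptors such as Cd163 and Mrc1, while lipid-laden macrophages around dying adipocytes carry Itgax, Trem2 and Gpnmb. Mast cells, a separate lineage of tissue leukocytes, store chymases, tryptases and carboxypeptidase in granules and carry the high-affinity IgE receptor. In a bulk sample, fewer cells of a type and less RNA per cell cannot be told apart.

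The values that made the sides are given as a description. Adgre1 ran from -1.79 through a median of -0.11 to 0.33 in the macrophage-poor mice and from 0.50 through 1.04 to 1.46 in the macrophage-rich mice. Cd68 ran from -1.69 through -0.21 to 0.37 in the former and from 0.44 through 0.85 to 1.29 in the latter. The last macrophage-rich mouse had a score of 0.47 and the next mouse outside 0.45, and the limits of the macrophage-poor side were -0.35 inside and -0.25 outside. The tertiles thus cut a continuous range. Its lower end had a tail of 7 mice with scores of -1.55 or less, against -1.19 for the next mouse. Of the macrophage-rich and macrophage-poor mice, 11 and 13, 17 and 13, and 7 and 9 fell in the lower, middle and upper tertile of the mouse numbers in the labels, so each of these tertiles held mice of both sides. Each array had between 26 and 421 probes without a value. The Eif2s3y and Gpx5 thresholds fell in wide gaps: the lowest Eif2s3y kept was -0.10 log2 and the highest left out -4.16, and the highest Gpx5 kept was -4.28 and the lowest left out 0.24.

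Between the sides, 2283 of 11450 genes tested were higher in the macrophage-rich mice (19.9% of genes) and 2533 were lower (22.1%), by limma at a Benjamini-Hochberg adjusted p under 0.05. Such genes are named as called below, differences are macrophage-rich minus macrophage-poor, and errors after ± are SEs of the fit over 35 mice a side. The rises were larger than the falls: 139 genes were at least 2-fold higher and 18 at least 2-fold lower. The middle tertile, which entered no test here, had a mean between those of both sides for 2220 of the higher genes and 2396 of the lower ones. It was cut from the same score, so these counts are no independent evidence. The share over all genes tested was not counted. In 14 genes every macrophage-rich mouse lay above every macrophage-poor mouse, and in 0 genes every one lay below. Since about 2 genes in 10 were called in each direction, a list is described below against those shares and against the median difference over all genes tested, -0.019 log2. The lists and the named genes were chosen with earlier results of these data known.

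**Figure D1:**
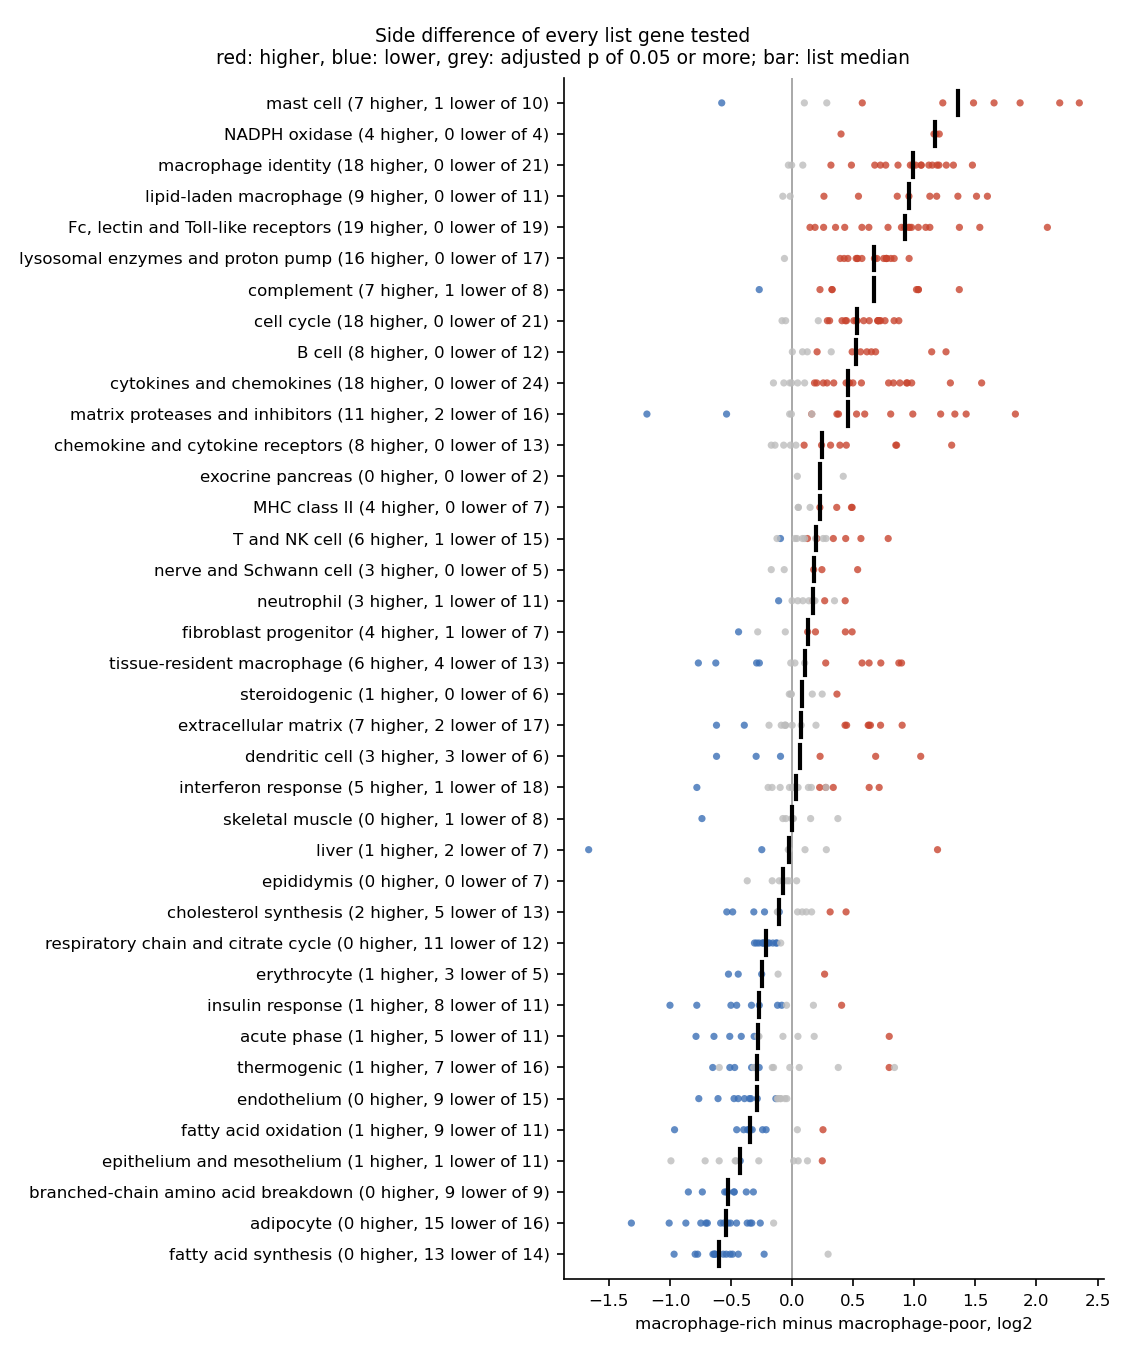
Macrophage-rich minus macrophage-poor difference in log2 (horizontal axis) for each gene tested of 38 gene lists (rows, ordered by their median, shown as a black bar). Red points were higher and blue points lower at an adjusted p under 0.05, and grey points were not called. Myeloid, lysosomal, mast cell and cell division lists lie to the right and adipocyte, lipid synthesis and branched-chain amino acid lists to the left.

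Other macrophage genes went with the markers that made the score, which is no independent evidence, since the sides were cut from macrophage markers on the same arrays. Of 21 macrophage identity genes tested, 18 were higher and 0 lower, with a median difference of 0.99 log2. Tyrobp, the adaptor that passes on signals from activating myeloid receptors, ran from -1.63 through a median of -0.20 to 0.34 in macrophage-poor mice and from 0.45 through 0.89 to 1.34 in macrophage-rich mice. The sides did not overlap for it, and the difference was 1.20 ± 0.094 log2 or 2.30-fold (limma, adjusted p = 2.89e-17). Cd14, the co-receptor for bacterial lipopolysaccharide, had a median of 0.021 in macrophage-poor mice (lowest -1.19, highest 0.40) and of 0.93 in macrophage-rich mice (lowest 0.43, highest 1.47). It too separated all 35 macrophage-rich from all 35 macrophage-poor mice, at 1.06 ± 0.083 log2 or 2.08-fold (limma, adjusted p = 3.03e-17). Slc11a1, a metal transporter of the phagosome, was higher by 1.26 ± 0.100. The receptor for the macrophage growth factor, Csf1r, differed less, by 0.72 ± 0.077 log2 or 1.65-fold (limma, adjusted p = 2.15e-12), and 25 of 35 macrophage-rich mice lay above the highest macrophage-poor one. Marco, Cx3cr1 and Siglec1, which mark macrophages of particular tissue sites, were the members not called, with differences of 0.087, -0.031 and -0.0043 log2.

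Genes of lipid-laden macrophages were higher while those of resident macrophages split. Of 11 lipid-laden macrophage genes tested, 9 were higher and 0 lower (median 0.96 log2). Ctsk, a cathepsin that digests collagen, ran from -2.13 through a median of -0.22 to 1.001 in macrophage-poor mice and from 0.71 through 1.22 to 2.11 in macrophage-rich mice. Most macrophage-rich mice, 27 of 35, lay above the highest macrophage-poor one, and the difference was 1.60 ± 0.14 log2 or 3.03-fold (limma, adjusted p = 6.01e-15). Dcstamp, needed for the fusion of macrophages into giant cells, was higher by 1.36 ± 0.12, and Lipa, the lysosomal lipase that frees cholesterol and fatty acids, by 1.18 ± 0.12. Itgax, which encodes CD11c, had a median of -0.24 in macrophage-poor mice (lowest -3.09, highest 0.93) and of 0.59 in macrophage-rich mice (lowest 0.036, highest 1.39). Both sides overlapped over much of that range, with 5 macrophage-rich mice above the highest macrophage-poor one, and the difference was 1.13 ± 0.17 log2 or 2.18-fold (limma, adjusted p = 9.13e-08).

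Trem2, the lipid receptor of these cells, and Gpnmb, a lysosomal membrane glycoprotein, had values on fewer than 90% of the arrays and were outside the main fit. In the fit without that filter, Trem2 was higher by 1.35 log2 (limma, adjusted p = 6.49e-07) over 20 macrophage-rich and 25 macrophage-poor mice with a value, and Gpnmb by 1.31 log2 (limma, adjusted p = 3.26e-06) over 30 and 31 mice. In the same fit Acp5, a phosphatase of phagocytes, was at -0.29 log2 (limma, adjusted p = 0.0737, 12 and 11 mice) and a second Fabp5 probe at 0.094 (limma, adjusted p = 0.525, 26 and 34 mice), neither called. Lpl, Fabp4 and Cd36 had too few values for a fit; the median of Lpl was -0.51 in 8 macrophage-rich and 0.068 in 10 macrophage-poor mice with a value, and Spp1, Lgals3 and Adipoq were not among the genes tested here. Whether a missing value reflects the gene's level was not tested.

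Of 13 resident macrophage genes tested, 6 were higher and 4 lower (median 0.10 log2). Cd163, the scavenger receptor for haemoglobin bound to haptoglobin, ran from -0.60 through a median of 0.083 to 1.16 in macrophage-poor mice and from -2.40 through -0.68 to 0.40 in macrophage-rich mice. Here the macrophage-rich mice were the low ones: 20 of 35 lay below the lowest macrophage-poor mouse, and the difference was -0.77 ± 0.13 log2 or 1.70-fold lower (limma, adjusted p = 4.18e-07). Mgl2, a galactose-binding lectin receptor, differed by -0.63 log2, Cbr2, a carbonyl reductase, by -0.29, and Lyve1, a hyaluronan receptor, by -0.27, all called lower. By contrast Mrc1, the mannose receptor, had a median of -0.20 in macrophage-poor mice (lowest -1.03, highest 0.24) and of 0.55 in macrophage-rich mice (lowest -0.13, highest 1.09). It was higher in the macrophage-rich mice, by 0.73 ± 0.066 log2 or 1.65-fold (limma, adjusted p = 7.80e-15). Stab1, a scavenger receptor, was higher by 0.90 ± 0.096, and the folate receptor gene Folr2 by 0.87 ± 0.092. Arg1, which encodes an arginase, was 0.27 log2 higher (limma, adjusted p = 2.16e-06). Retnla, a secreted product of alternatively activated macrophages, was measured on too few arrays for the main fit and was -0.73 log2 without the filter (limma, adjusted p = 0.00193, 32 and 19 mice). The lower members of this list were the less steady ones. With the mean of the B cell list in the fit 6 genes were higher and 2 lower, within the lower, middle and upper tertile of mouse number 3, 2 and 1 were lower, and in the Eif2s3y-high mice with epididymis transcripts described below 6 were higher and 0 lower.

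**Figure D2:**
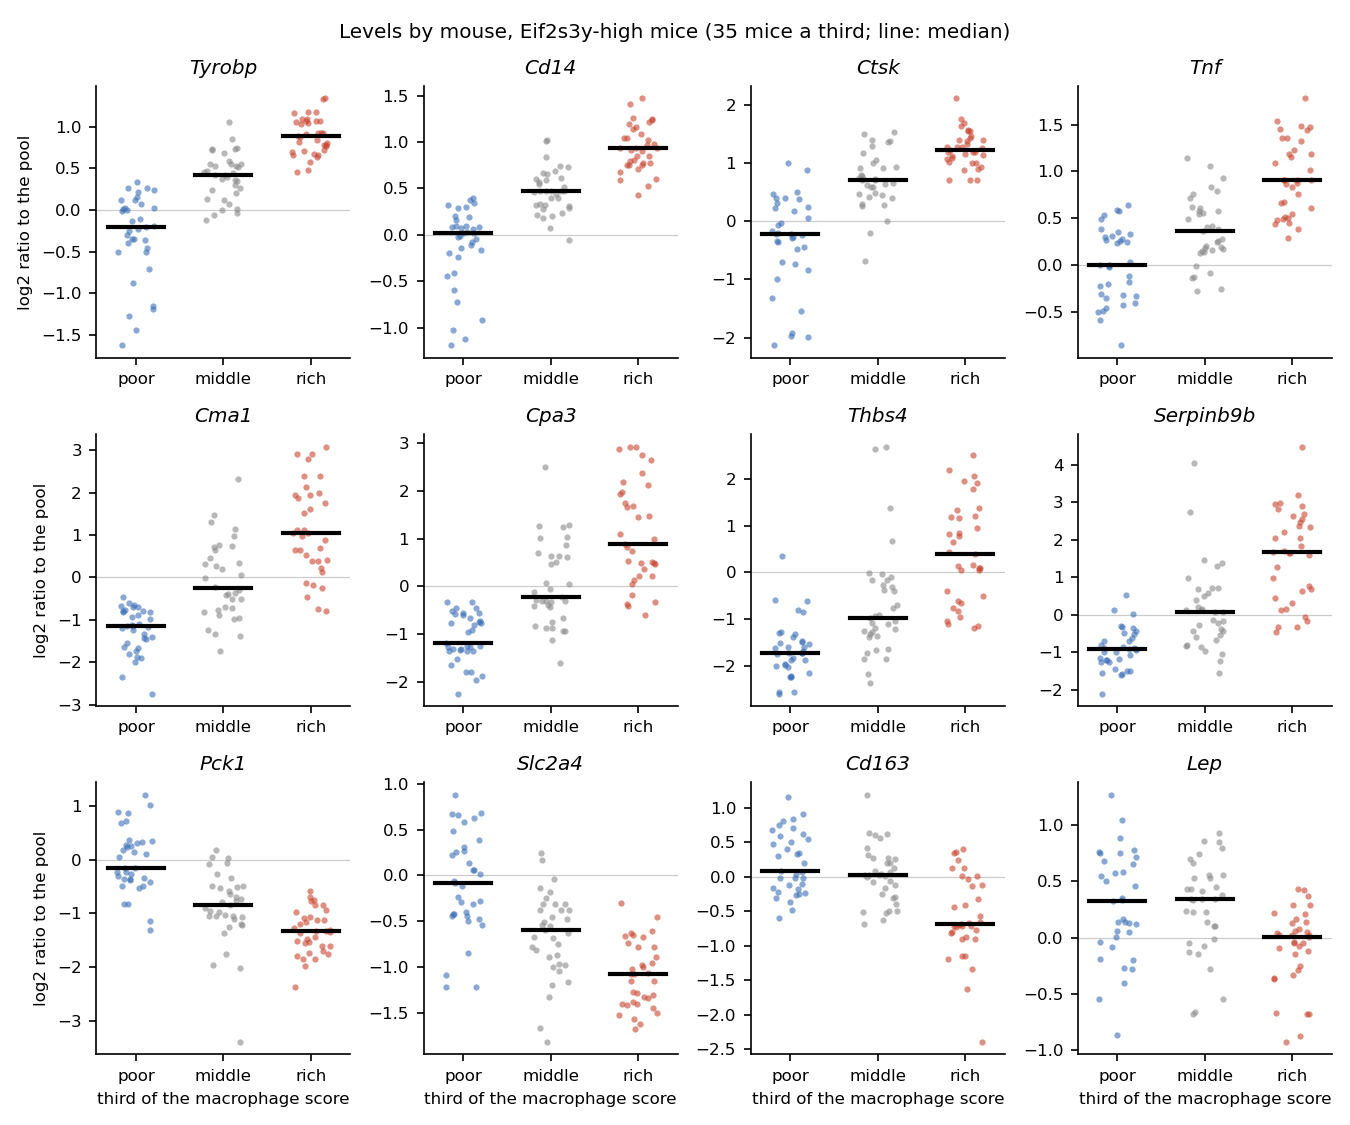
Level of 12 genes in each of the 105 mice (vertical axis, log2 ratio to the pool, a scale of its own in each panel) by tertile of the macrophage score. Each point is a mouse and each line the median of 35 mice. Tyrobp and Cd14 do not overlap between the outer tertiles, Cma1, Cpa3, Thbs4 and Serpinb9b spread widely in the macrophage-rich tertile, and Pck1, Slc2a4 and Cd163 are lower there.

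Receptors, the respiratory burst and complement went the same way. All 19 Fc, lectin and Toll-like receptor genes tested were called higher (median 0.92 log2). Clec4d, a C-type lectin that recognises mycobacterial lipid, had the largest difference of them, 2.09 ± 0.20 log2 or 4.26-fold (limma, adjusted p = 7.06e-14). It ran from -2.50 through a median of -0.65 to 0.53 in macrophage-poor mice and from -0.42 through 1.38 to 3.47 in macrophage-rich mice. The ranges overlapped, with 25 macrophage-rich mice above the highest macrophage-poor one. The inhibitory receptor gene Lilrb4a was higher by 1.54 ± 0.12, Ly86, a partner of a Toll-like receptor, by 1.03 ± 0.091 and Tlr2, a receptor for bacterial lipoproteins, by 0.78 ± 0.072. All 4 genes tested of the phagocyte NADPH oxidase were higher (median 1.17 log2), with the subunit gene Ncf4 at 1.20 ± 0.11, the GTPase gene Rac2 at 1.18 ± 0.11 and Cybb, the catalytic subunit, at 1.16 ± 0.12. Of 8 complement genes, 7 were higher and 1 lower, with the C1q chain genes C1qc and C1qb at 1.02 ± 0.11 and 1.03 ± 0.12 and the complement receptor chain Itgb2 at 1.37 ± 0.11, while C2, an early component, was called lower at -0.27. That call of C2 was absent within the middle and upper tertiles of mouse number and without mice of Eif2s3y log2 ratio below 0.5. It was also absent without the 7 macrophage-poor mice of lowest score and in the mice with epididymis transcripts described below.

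Cytokine genes were higher to unequal degrees. Of 24 cytokine and chemokine genes, 18 were higher and 0 lower (median 0.45 log2). Tnf ran from -0.86 through a median of -0.0011 to 0.64 in macrophage-poor mice and from 0.29 through 0.91 to 1.78 in macrophage-rich mice. Every macrophage-rich mouse exceeded the macrophage-poor median and 25 exceeded the highest macrophage-poor mouse, for a difference of 0.94 ± 0.093 log2 or 1.92-fold (limma, adjusted p = 1.26e-13). Il1b differed by only 0.18 log2 (limma, adjusted p = 0.0329), with no macrophage-rich mouse above the highest macrophage-poor one. Ccl2, which draws monocytes from the blood, had a median of 0.26 in macrophage-poor mice (lowest -1.97, highest 1.59) and of 0.77 in macrophage-rich mice (lowest 0.12, highest 1.17). The macrophage-poor mice held both the lowest and the highest of these values, and the difference was 0.57 ± 0.13 log2 or 1.48-fold (limma, adjusted p = 1.36e-04). Ccl6 and Cxcl16, also chemokines, were higher by 0.98 ± 0.092 and 0.79 ± 0.075. Of 13 receptor genes, 8 were higher and 0 lower, with the largest difference for Il7r, the interleukin-7 receptor, 1.31 ± 0.16, and with Il10ra and Ccrl2 at 0.85 ± 0.089 and 0.44 ± 0.063. Of 18 interferon response genes, 5 were higher and 1 lower (median 0.031 log2), with Oas1a and Oasl2 at 0.71 and 0.63 and Mx1 at -0.78.

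Lysosomal genes were higher almost throughout. Of 17 genes for lysosomal enzymes and the proton pump, 16 were higher and 0 lower (median 0.67 log2). Hexa, a subunit of the enzyme that degrades gangliosides, ran from -0.98 through a median of -0.17 to 0.18 in macrophage-poor mice and from 0.16 through 0.53 to 0.94 in macrophage-rich mice. All but 1 macrophage-rich mouse lay above the highest macrophage-poor one, at 0.77 ± 0.059 log2 or 1.71-fold (limma, adjusted p = 1.10e-17). Gusb, the beta-glucuronidase, was higher by 0.96 ± 0.078, and Grn, which encodes progranulin, by 0.77 ± 0.063. The protease gene Ctsd was higher by 0.84 ± 0.073. The 1 probe of the list that was not called was that of Ctss in the main fit (-0.063 log2), while a second Ctss probe, below the filter, had values on 11 macrophage-rich and 7 macrophage-poor mice and medians of 0.43 and -0.99.

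Many lysosomal genes carry the E-box that the factors Tfeb and Mitf bind, and the promoter of Ctsd is shown because it held 2 matches. RefSeq promoters (GRCm38.p6, 250 bases before each annotated start) were searched on both strands for 7 strings over 6 lists: GAGGAAGT, GAGGAAG and AGGAAGTG for the myeloid factor PU.1, AGATAA and TGATAA for GATA factors, and CACGTGAC and TCACGTGA for the E-box. The strings, and the promoters printed, were chosen after the values and the matches had been seen. CACGTGAC stood in 3 of 17 lysosomal promoters against 1.85% of all 32851 promoters, and TCACGTGA in 3 against 0.785%. GAGGAAGT and AGGAAGTG were in 0 of 18 macrophage identity promoters each, against 2.44% and 3.14% of all promoters. The shorter GAGGAAG, which lies within GAGGAAGT, was in 4 of them and in 12 of 27 promoters of Fc, lectin and Toll-like receptor genes, against 10.6% of all. A match is a description of the letters and no evidence of binding. In the sequence below, 5′ to 3′ on the minus strand of chr7:142387828-142388077, capitals mark CACGTGAC, beginning 245 and 98 bases before the start.
Ctsd: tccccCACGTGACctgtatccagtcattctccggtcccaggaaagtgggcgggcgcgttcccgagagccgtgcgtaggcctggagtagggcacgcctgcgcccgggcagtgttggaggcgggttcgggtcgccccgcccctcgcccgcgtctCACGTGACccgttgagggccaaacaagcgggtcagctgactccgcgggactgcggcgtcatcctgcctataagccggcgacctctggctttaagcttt

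Cell division genes, a sign of dividing cells in the tissue, were higher as a group. Of 21 tested, 18 were higher and 0 lower (median 0.53 log2). Cenpa, the centromeric histone, ran from -1.04 through a median of -0.11 to 0.33 in macrophage-poor mice and from 0.10 through 0.70 to 1.18 in macrophage-rich mice. All but a few macrophage-rich mice (32 of 35) lay above the highest macrophage-poor one, at 0.87 ± 0.071 log2 or 1.83-fold (limma, adjusted p = 1.46e-16). Pcna, the replication clamp, and Mcm3, part of the replicative helicase, were higher by 0.72 ± 0.071 and 0.59 ± 0.060, and a second Mcm3 probe gave 0.18. The samples do not show which cells divided.

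Mast cell genes had the highest median difference of the 38 lists. Of 10 mast cell genes, 7 were higher and 1 lower, with a median difference of 1.36 log2 against -0.019 over all genes. Cma1, a chymase of mast cell granules, ran from -2.73 through a median of -1.15 to -0.45 in macrophage-poor mice and from -0.78 through 1.04 to 3.08 in macrophage-rich mice. In 32 of 35 macrophage-rich mice it exceeded the highest macrophage-poor mouse, and the difference was 2.35 ± 0.20 log2 or 5.10-fold (limma, adjusted p = 6.14e-16). Cpa3, the granule carboxypeptidase, had a median of -1.18 in macrophage-poor mice (lowest -2.24, highest -0.32) and of 0.89 in macrophage-rich mice (lowest -0.61, highest 2.93). The picture was alike, with 32 mice above the highest macrophage-poor one and 2.19 ± 0.20 log2 or 4.56-fold (limma, adjusted p = 4.20e-15). A second chymase, Mcpt4, ran from -1.69 through a median of -0.71 to -0.014 in macrophage-poor mice and from -0.49 through 0.83 to 2.62 in macrophage-rich mice. It differed by 1.65 ± 0.15 log2 or 3.14-fold (limma, adjusted p = 4.96e-15). Fcer1a, the IgE-binding chain of the high-affinity receptor, had a median of -0.57 in macrophage-poor mice (lowest -2.10, highest 0.061) and of 1.19 in macrophage-rich mice (lowest -0.77, highest 3.01). The highest macrophage-poor mouse was exceeded by 29 macrophage-rich mice, at 1.87 ± 0.18 log2 or 3.65-fold (limma, adjusted p = 1.45e-13).

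The rest of the mast cell list was uneven, and these members are given in full although only some were picked by the rule for named genes. The tryptase genes Tpsb2 and Tpsab1 were higher by 1.23 ± 0.15 and 1.48 ± 0.22; they are close copies of each other, so their probes may share signal. Ms4a2, the beta chain of the same receptor, was higher by 0.57 ± 0.11. Hdc, which makes histamine, and Kit, the receptor for stem cell factor that mast cells keep through life, were not called, at 0.28 ± 0.13 and 0.100 ± 0.084. Gata2, a transcription factor of mast cells that other lineages also express, was lower, at -0.58 ± 0.18. The mean of the 10 genes ran from -1.26 to 0.13 in the macrophage-poor mice, from -1.02 to 1.69 in the middle tertile and from -0.49 to 2.13 in the macrophage-rich mice, with medians of -0.58, -0.16 and 0.37. The macrophage-rich mice thus differed widely among themselves, and some were no higher than the macrophage-poor ones. Values within the lower, middle and upper tertiles of mouse number were 2.07, 2.53 and 2.43 log2 for Cma1 and 2.07, 2.35 and 2.04 for Cpa3. Without the 7 macrophage-poor mice of lowest score, an alternative added after the data were seen, Cma1 differed by 2.36.

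**Figure D3:**
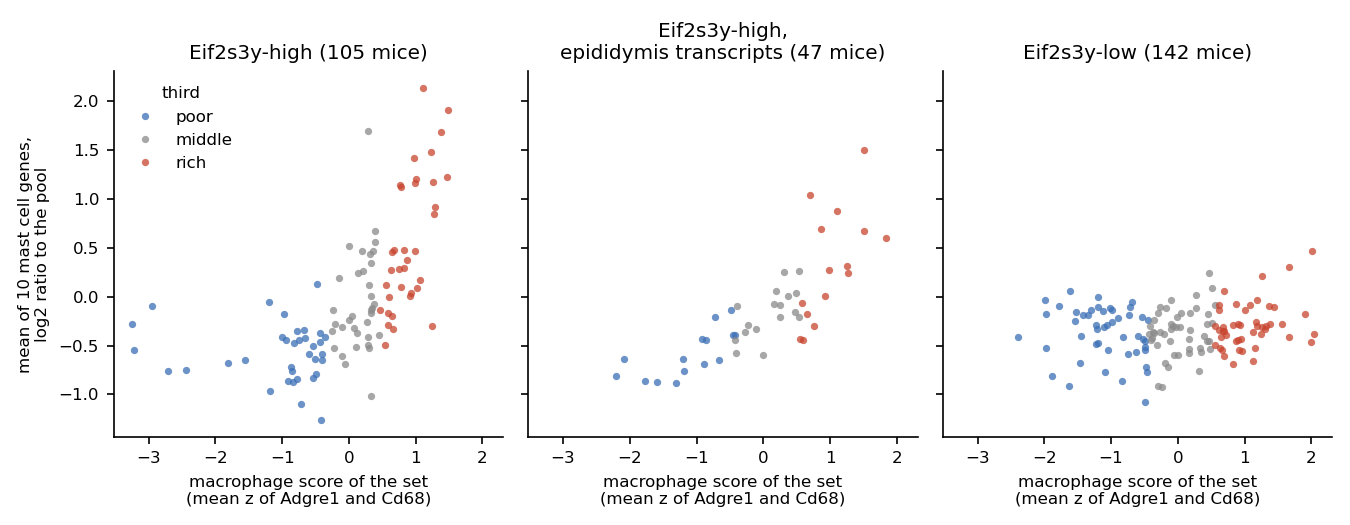
Mean log2 ratio of 10 mast cell genes (vertical axis) against the macrophage score (horizontal axis, z-scaled within each set of mice) in Eif2s3y-high mice without and with epididymis transcripts and in Eif2s3y-low mice. Each point is a mouse, coloured by tertile of the score. In both Eif2s3y-high panels the macrophage-rich points spread upwards, to 2.13 in the mice without epididymis transcripts, while the Eif2s3y-low points of all tertiles lie between -1.07 and 0.47.

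The promoters of the mast cell genes with the largest differences are shown because theirs are the largest differences of the list with the highest median. AGATAA or TGATAA stood in 4 of 10 mast cell promoters of 8 genes and in 16.6% of all promoters. Among the other lists searched it stood in 3 of 17 lysosomal, 2 of 18 macrophage identity, 3 of 26 adipocyte, 2 of 3 NADPH oxidase and 1 of 27 receptor promoters. Capitals mark these strings or their reverse complements, each sequence reads 5′ to 3′ on the minus strand, and the last base precedes the annotated start. The matches begin 46 bases before the start in Cpa3 (chr3:20242182-20242431), 103 in Mcpt4 (chr14:56062311-56062560) and 92 in Fcer1a (chr1:173227230-173227479). The window of Cma1 (chr14:55944676-55944925) holds none of these letters.
Cma1: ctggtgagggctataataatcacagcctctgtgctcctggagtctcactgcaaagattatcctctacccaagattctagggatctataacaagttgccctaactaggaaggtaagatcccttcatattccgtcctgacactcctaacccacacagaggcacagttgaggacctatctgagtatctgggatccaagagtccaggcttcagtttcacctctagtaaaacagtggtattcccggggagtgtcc
Cpa3: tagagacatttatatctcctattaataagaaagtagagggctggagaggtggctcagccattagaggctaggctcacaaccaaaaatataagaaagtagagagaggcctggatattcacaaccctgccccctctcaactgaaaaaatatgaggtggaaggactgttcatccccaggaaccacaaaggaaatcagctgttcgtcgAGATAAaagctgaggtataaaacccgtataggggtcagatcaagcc
Mcpt4: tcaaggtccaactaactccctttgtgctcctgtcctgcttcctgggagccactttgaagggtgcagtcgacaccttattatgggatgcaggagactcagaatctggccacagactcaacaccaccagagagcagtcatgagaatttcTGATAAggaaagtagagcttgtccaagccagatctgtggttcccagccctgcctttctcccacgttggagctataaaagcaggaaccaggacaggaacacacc
Fcer1a: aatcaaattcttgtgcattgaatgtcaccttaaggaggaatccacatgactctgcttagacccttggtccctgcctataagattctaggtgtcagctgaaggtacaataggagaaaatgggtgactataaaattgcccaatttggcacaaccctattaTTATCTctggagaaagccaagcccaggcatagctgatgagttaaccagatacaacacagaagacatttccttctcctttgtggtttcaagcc

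Several of the largest single rises were in genes outside the lists, and 1 further, Mmp3, was in the list of matrix proteases. Serpinb9b, a serine protease inhibitor of the ovalbumin family, ran from -2.10 through a median of -0.91 to 0.53 in macrophage-poor mice and from -0.47 through 1.67 to 4.49 in macrophage-rich mice. It had the largest difference of any gene tested, 2.47 ± 0.22 log2 or 5.54-fold (limma, adjusted p = 5.45e-15). Hc, which encodes complement component C5, had a median of -1.77 in macrophage-poor mice (lowest -2.87, highest -0.019) and of 0.81 in macrophage-rich mice (lowest -1.14, highest 2.25). Most macrophage-rich mice, 30 of 35, lay above the highest macrophage-poor one, at 2.44 ± 0.17 log2 or 5.42-fold (limma, adjusted p = 2.56e-19). Thbs4, a matrix thrombospondin, ran from -2.59 through a median of -1.72 to 0.36 in macrophage-poor mice and from -1.18 through 0.40 to 2.51 in macrophage-rich mice. It differed by 2.07 ± 0.21 log2 or 4.19-fold (limma, adjusted p = 1.64e-13), with 18 macrophage-rich mice above the highest macrophage-poor one. Ccn4, a matrix protein gene induced by Wnt signals, was higher by 1.66 ± 0.18 log2 or 3.17-fold (limma, adjusted p = 3.67e-12). Mmp3, stromelysin, was higher by 1.83 ± 0.17 log2 or 3.55-fold (limma, adjusted p = 1.08e-14).

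Some further large rises were less even among mice or probes. Hmox1, the haem-degrading oxygenase, was higher by 1.66 ± 0.30 log2 or 3.16-fold (limma, adjusted p = 4.51e-06), and its macrophage-poor mice alone spanned -4.02 to 1.30. Cxadr, a cell adhesion receptor, was higher by 1.73 ± 0.35 on its most variable probe and by 0.075 on another. TDRD9, listed under that name in the annotation and with no role in fat known from the labels, was higher by 2.16 ± 0.44, while its other probes gave 0.011 to 0.94. For these 2 genes the probes therefore disagree.

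Genes of the lymphocyte lists moved with the score in part. Of 12 B cell genes, 8 were higher and 0 lower (median 0.53 log2), and the mean of the list ran from -0.98 to 0.60 in macrophage-poor and from -0.54 to 1.07 in macrophage-rich mice. Blnk, an adaptor of B cell receptor signalling, ran from -2.06 through a median of -0.11 to 0.36 in macrophage-poor mice and from 0.34 through 0.82 to 1.38 in macrophage-rich mice. It differed by 1.14 ± 0.10 log2 or 2.21-fold (limma, adjusted p = 9.84e-15). Cd22, an inhibitory B cell receptor, was higher by 1.26 ± 0.16, and Cd37, a tetraspanin of mature B cells, by 0.65 ± 0.075. The markers Ms4a1 and Cd79a, which encode CD20 and a chain of the B cell receptor, were not called, at 0.32 and 0.12. Of 15 T and NK cell genes, 6 were higher and 1 lower, led by Cd8a, Cd3g and Cd3d at 0.44 ± 0.089, 0.79 ± 0.16 and 0.56 ± 0.13. Most genes of the B cell list thus moved with the sides, though Ms4a1 and Cd79a were not called, and the mean of the list was added to the fit as a covariate. The list holds genes such as Blnk that followed the macrophage score closely. This covariate therefore cannot separate B cell content from macrophage content. Over all genes that left 1690 higher and 1754 lower, of which 1549 and 1492 were called in the same direction without it. With it, the 3 T cell genes were no longer called (0.080, 0.0030 and -0.026 log2), while Tyrobp, Cma1 and Pck1 remained called at 1.10, 1.91 and -1.29. Macrophage identity, lysosomal, cell cycle and mast cell lists then had 17 (without it 18), 16 (without it 16), 18 (without it 18) and 7 (without it 7) higher genes, and adipocyte and fatty acid synthesis lists 13 (without it 15) and 12 (without it 13) lower genes. In other lists the count fell further: lower genes went from 11 to 2 in the respiratory chain list, from 7 to 2 in the thermogenic list and from 5 to 1 in the cholesterol synthesis list. The MHC class II list went from 4 higher and 0 lower to 2 and 2.

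Other leukocyte lists moved little or in both directions. Of 11 neutrophil genes, 3 were higher and 1 lower (median 0.17 log2): Csf3r, the receptor for granulocyte colony-stimulating factor, was at 0.43, Mpo, a granule peroxidase, at 0.17 and Elane, neutrophil elastase, at -0.11. Of 6 dendritic cell genes, 3 were higher and 3 lower, with Cd83 and Irf8 at 1.05 and 0.68 and the integrin gene Itgae at -0.62. Of 7 MHC class II genes, which present antigen, 4 were higher and 0 lower, with H2-DMb1 at 0.49, H2-Aa at 0.49 and H2-DMb2 at 0.36. Except for Cd83, the members named here had differences below the median of the macrophage identity list.

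Genes of the adipocyte were lower in macrophage-rich fat. Of 16 tested, 15 were lower and 0 higher (median -0.54 log2). Pck1, whose enzyme makes glycerol backbones for triglyceride in fat, ran from -1.32 through a median of -0.16 to 1.21 in macrophage-poor mice and from -2.37 through -1.34 to -0.58 in macrophage-rich mice. Every macrophage-rich mouse lay below the macrophage-poor median and 19 lay below the lowest macrophage-poor mouse, at -1.32 ± 0.12 log2 or 2.49-fold lower (limma, adjusted p = 6.81e-15). Adig, a small adipocyte membrane protein, and Lpin1, a phosphatidate phosphatase, were lower, at -0.75 ± 0.092 and -0.71 ± 0.083. Pparg, the master transcription factor of adipocytes, had a median of -0.023 in macrophage-poor mice (lowest -0.71, highest 0.72) and of -0.26 in macrophage-rich mice (lowest -0.86, highest 0.22). The sides overlapped widely and the difference was -0.34 ± 0.071 log2 or 1.27-fold lower (limma, adjusted p = 4.32e-05). Lep, which encodes leptin, ran from -0.86 through a median of 0.32 to 1.27 in macrophage-poor mice and from -0.92 through 0.0093 to 0.43 in macrophage-rich mice. Its difference was -0.37 ± 0.098 log2 or 1.29-fold lower (limma, adjusted p = 0.00149). The one member not called was the transcription factor gene Cebpa, at -0.15.

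Genes of fatty acid synthesis and of the insulin response were lower too. Of 14 fatty acid synthesis genes, 13 were lower and 0 higher (median -0.60 log2). Fasn, the fatty acid synthase, ran from -1.77 through a median of 0.11 to 1.51 in macrophage-poor mice and from -1.75 through -0.66 to 0.15 in macrophage-rich mice. Its difference was -0.79 ± 0.12 log2 or 1.73-fold lower (limma, adjusted p = 1.32e-07), without a macrophage-rich mouse below the lowest macrophage-poor one. Scd1, the stearoyl-CoA desaturase, and Acaca, acetyl-CoA carboxylase, were lower at -0.77 ± 0.084 and -0.63 ± 0.078, and 2 other Acaca probes gave -0.12 and -0.039. Me1, malic enzyme, was at -0.63 ± 0.087. Of 11 insulin response genes, 8 were lower and 1 higher. Slc2a4, the insulin-regulated glucose transporter GLUT4, had a median of -0.080 in macrophage-poor mice (lowest -1.22, highest 0.88) and of -1.08 in macrophage-rich mice (lowest -1.67, highest -0.30). All macrophage-rich mice lay below the macrophage-poor median, and the level was 2.00-fold lower (SE 0.11 log2, limma, adjusted p = 3.60e-12). Irs1, which relays the insulin signal, was at -0.33 ± 0.044, and Akt1, a kinase further down, was the member called higher, at 0.40 ± 0.041.

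Mitochondrial genes were lower to unequal degrees. All 9 genes tested of branched-chain amino acid breakdown were lower (median -0.53 log2), led by Aldh6a1, a dehydrogenase of valine breakdown, at -0.85 ± 0.076 log2 or 1.80-fold lower (limma, adjusted p = 4.48e-15). Hibch, of the same route, and Mccc1, of leucine breakdown, were at -0.74 ± 0.071 and -0.55 ± 0.057. Of 11 fatty acid oxidation genes, 9 were lower and 1 higher, with the peroxisomal enzyme gene Ehhadh at -0.96 ± 0.100, and Cpt2 and Acads at -0.35 and -0.40. Of 12 respiratory chain and citrate cycle genes, 11 were lower and 0 higher, by small amounts: complex I subunits Ndufa10, Ndufv1 and Ndufs1 were at -0.31, -0.27 and -0.23. The list had 2 lower genes with the B cell covariate, 7 with Lep as a covariate and 0 in the mice with epididymis transcripts. Of 13 cholesterol synthesis genes, 5 were lower and 2 higher, with Fdft1 and Sc5d at -0.54 and -0.49 and the regulator Srebf2 at 0.44. Of 16 thermogenic genes, 7 were lower and 1 higher: Ppara and Pdk4 were at -0.65 and -0.51, and Dio2, which activates thyroid hormone, at 0.79 ± 0.13. Ucp1, the uncoupling protein of brown fat, varied from -5.92 to 1.04 among macrophage-poor mice alone and was not called, at 0.84 ± 0.38.

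The largest single falls were in genes of several kinds. Cyp2e1, a cytochrome that oxidises ethanol and ketones, ran from -2.82 through a median of -0.99 to 3.02 in macrophage-poor mice and from -3.82 through -2.79 to -0.39 in macrophage-rich mice. It had the largest fall of any gene tested, -1.67 ± 0.27 log2 or 3.17-fold lower (limma, adjusted p = 4.44e-07), and 17 macrophage-rich mice lay below the lowest macrophage-poor one. Acsm3, a medium-chain acyl-CoA synthetase, was at -1.58 ± 0.27, Upb1, of pyrimidine breakdown, at -1.33 ± 0.24, and Aass, of lysine breakdown, at -1.26 ± 0.24. Single macrophage-poor mice reached 4.19 for Upb1 and 4.38 for Aass, far above the macrophage-poor medians of 0.17 and -0.30. Folh1, a peptidase that removes glutamate, had a median of 0.49 in macrophage-poor mice (lowest -0.78, highest 1.92) and of -0.89 in macrophage-rich mice (lowest -2.12, highest 0.53). The difference was -1.29 ± 0.15 log2 or 2.44-fold lower (limma, adjusted p = 2.04e-11). Rbp7, a retinol-binding protein of fat vessels and adipocytes, was at -1.20 ± 0.19, the Wnt inhibitor gene Apcdd1 at -1.27 ± 0.13, and Cnksr1, Chst1 and Egf at -1.48, -1.14 and -1.17. Apoe differed by -0.24 log2 (limma, adjusted p = 0.0418). What its probe detects in a cross that lacks ApoE was not tested.

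Genes of the matrix and vessels divided. Of 17 matrix genes, 7 were higher and 2 lower (median 0.074 log2), with the proteoglycans Lum and Bgn at 0.90 ± 0.11 and 0.64 ± 0.070 and the lysyl oxidase relative Loxl1 at 0.62 ± 0.086, of which a second probe gave 0.063. The collagen genes Col1a1 and Col1a2, at 0.63 and 0.72, had other probes as low as -0.32 and -0.39, so their direction depends on the probe. Of 16 genes of matrix proteases and their inhibitors, 11 were higher and 2 lower. The collagenase gene Mmp13 was at 1.42 ± 0.11 and the gelatinase gene Mmp2 at 0.99 ± 0.10. The inhibitor gene Timp4 went down: it ran from -0.97 through a median of 0.71 to 2.01 in macrophage-poor mice and from -1.40 through -0.38 to 0.49 in macrophage-rich mice. Its difference was -1.19 ± 0.15 log2 or 2.28-fold lower (limma, adjusted p = 3.17e-10), and all macrophage-rich mice lay below the macrophage-poor median. Of 15 endothelial genes, 9 were lower and 0 higher (median -0.29 log2). The receptors for vascular endothelial growth factor, Kdr and Flt1, were at -0.76 ± 0.096 and -0.61 ± 0.064, and the junction gene Esam at -0.44 ± 0.059, while Pecam1, which most endothelial cells carry, was not called at -0.044. Of 7 fibroblast progenitor genes, 4 were higher and 1 lower, with Pdgfra at 0.49, Cd248 at 0.44 and Thy1 at 0.13.

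Acute phase genes, which fat makes in response to inflammation, were mostly lower or not called. Of 11, 5 were lower and 1 higher (median -0.28 log2). Orm1, an orosomucoid, ran from -0.69 through a median of 0.18 to 1.21 in macrophage-poor mice and from -1.59 through -0.44 to 0.28 in macrophage-rich mice. Its difference was -0.79 ± 0.12 log2 or 1.73-fold lower (limma, adjusted p = 3.62e-08). Orm2, its neighbour in the family, was at -0.51 ± 0.099, and probes of these near copies may share signal. Steap4, a metalloreductase, was at -0.64 ± 0.077, and Hpx, which binds free haem, was the member called higher, at 0.79 ± 0.24. Without the 7 macrophage-poor mice of lowest score, 0 members were called higher and 6 lower. The serum amyloid genes Saa3 and Saa1 were not called, at -0.28 ± 0.17 and -0.27 ± 0.17, and their probes may likewise share signal.

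Markers of other tissues that a dissected fat sample can carry showed few differences between the sides of these mice. The lists for epididymis, exocrine pancreas, skeletal muscle, steroid-making cells and epithelium and mesothelium had 0, 0, 0, 1 and 1 genes higher and 0, 0, 1, 0 and 1 lower, of 7, 2, 8, 6 and 11 tested. The epididymis list could show little, because the mice were kept for a low Gpx5. Its mean had a median of -5.03 in macrophage-poor and -4.93 in macrophage-rich mice. The called genes were Cyp11a1, the first enzyme of steroid synthesis, at 0.37, Wt1, a mesothelial factor, at 0.25 and -0.74 for Tnnc2, a fast-muscle troponin, while the claudin gene Cldn4 was called lower at -0.43. Without the 7 macrophage-poor mice of lowest score, Tnnc2 and Cldn4 were not called lower, and 1 muscle and 2 steroid-making genes were called higher. Within the lower tertile of mouse number Wt1 was at -0.0065. Of the members with the smallest p in these lists, Atp2a1 and Pvalb of muscle were at 0.37 and -0.051, Hsd3b1 and Cyp11b1 of steroid synthesis at 0.16 and 0.25, and Cdh1, an epithelial cadherin, at -0.99, with no call. The epididymis genes Spink10, Ces5a and Lcn5 were at -0.37, -0.16 and -0.11 and the pancreas genes Cpb1 and Prss1 at 0.42 and 0.042, none of them called. Of 5 erythrocyte genes, 1 was higher and 3 lower, with Rhd at 0.27, Hbb-b1 at -0.52 and Alas2 at -0.44. Of 7 genes best known from liver, 1 was higher (Ahsg at 1.19, with 0.028 on its other probe) and 2 lower (Cyp2e1 above and Trf, transferrin, at -0.25). Of 5 nerve and Schwann cell genes, 3 were higher, Pmp22 at 0.54, Mbp at 0.24 and Cnp at 0.18.

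The same score was cut into tertiles in 142 Eif2s3y-low mice, 47 a side, and these sets share no mouse. There 16.2% of genes were higher and 22.1% lower on the macrophage-rich side. Of 11 epithelium and mesothelium genes, 0 were higher and 9 lower there (median -0.77 log2), against 1 and 1 in the Eif2s3y-high mice. The list for steroid-making cells had 0 calls there and a median of -0.58 log2, against 0.079. Whether other tissue in the samples bears on differences between the sets, such as that of Wt1, was not tested. The sides of the Eif2s3y-low set lay further apart in the markers themselves, by 1.98 log2 for Adgre1 and 1.66 for Cd68, against 1.31 and 1.26 here. They also lay lower, since the score was z-scaled within each set. The Eif2s3y-low macrophage-rich side had medians of 0.32 for Adgre1 and 0.16 for Cd68. Here the medians were 1.04 and 0.85 on the macrophage-rich side and 0.51 and 0.44 in the middle tertile. Macrophage-rich therefore does not mean a like marker level in both sets. Of the 11450 genes, 693 had a difference that was larger, in the sense of more positive, in Eif2s3y-high mice (6.05%) and 609 a more negative one (5.32%), by the interaction in limma. That marker gap moves with the set, and its part in these counts was tested only by a fit of slopes per log2 unit of the mean of both markers, added after the data were seen, which called 1024 and 873 genes. Of 51 named genes whose difference differed between the sets, 40 were called with the same sign in that fit and 7 had the same sign without a call. The other 4, Tyrobp, Slc11a1, Cd83 and Cyp2e1, had the opposite sign without a call.

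Mast cell genes differed between the sets. Of 10, 9 had a larger difference in Eif2s3y-high mice, and in Eif2s3y-low mice the list had 4 genes higher, 3 lower and a median of 0.12 log2. Cma1 differed by 0.49 ± 0.14 log2 between the Eif2s3y-low sides, an interaction of 1.87 ± 0.24 log2 (limma, adjusted p = 5.70e-10) from the difference here. Cpa3, Mcpt4, Fcer1a and Tpsb2 differed by 0.55, 0.37, 0.50 and 0.11 there, and the interactions were 1.64 ± 0.22, 1.29 ± 0.15, 1.36 ± 0.23 and 1.12 ± 0.15, with limma adjusted p-values between 5.72e-11 for Mcpt4 and 6.88e-06 for Fcer1a. Thbs4 went in opposite directions on average, at 2.07 here and -0.80 in Eif2s3y-low mice (interaction 2.87 ± 0.34, limma, adjusted p = 4.25e-11). Its Eif2s3y-low values spread widely, from -2.15 to 2.14 in macrophage-poor and from -2.76 to 1.45 in macrophage-rich mice. The macrophage-poor values there formed a lower and an upper group, with none between -0.81 and 0.012. The value of -0.80 is thus a difference of means and not an even shift. Ccn4 also went in opposite directions, at 1.66 and -0.36 (interaction 2.03 ± 0.22, limma, adjusted p = 5.98e-13), and Dio2, at 0.79, was not called in Eif2s3y-low mice at -0.52 (interaction 1.31 ± 0.30, limma, adjusted p = 0.00118).

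Some macrophage and acute phase genes differed more between the sides of the Eif2s3y-low mice, whose markers lay further apart. Mpeg1, a pore-forming protein of macrophages, was higher by 0.77 here and 1.87 there (interaction -1.10 ± 0.16, limma, adjusted p = 1.42e-07), Itgax by 1.13 and 2.17 (interaction -1.04 ± 0.23, limma, adjusted p = 7.18e-04), and Ccl2 by 0.57 and 1.76 (interaction -1.20 ± 0.16, limma, adjusted p = 1.41e-08). Per log2 unit of the markers the difference between sets was called for Mpeg1 (-0.28 ± 0.058, limma, adjusted p = 1.41e-04) and Ccl2 (-0.38 ± 0.079, limma, adjusted p = 1.06e-04) but not for Itgax (-0.17 ± 0.087, limma, adjusted p = 0.175). Lep was on average lower on the macrophage-rich side here, at -0.37, and higher there, at 0.52 (interaction -0.88 ± 0.13, limma, adjusted p = 9.67e-08). Saa3 was not called here, at -0.28, and was higher there, at 1.30 (interaction -1.58 ± 0.23, limma, adjusted p = 9.13e-08). Of 11 acute phase genes, 6 had a more negative difference in Eif2s3y-high mice. Among adipocyte genes, 4 of 16 had a more negative difference here and 0 a more positive one, and Pck1, at -1.32 and -1.09, had an interaction of -0.22 ± 0.17 that was not called.

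**Figure D4:**
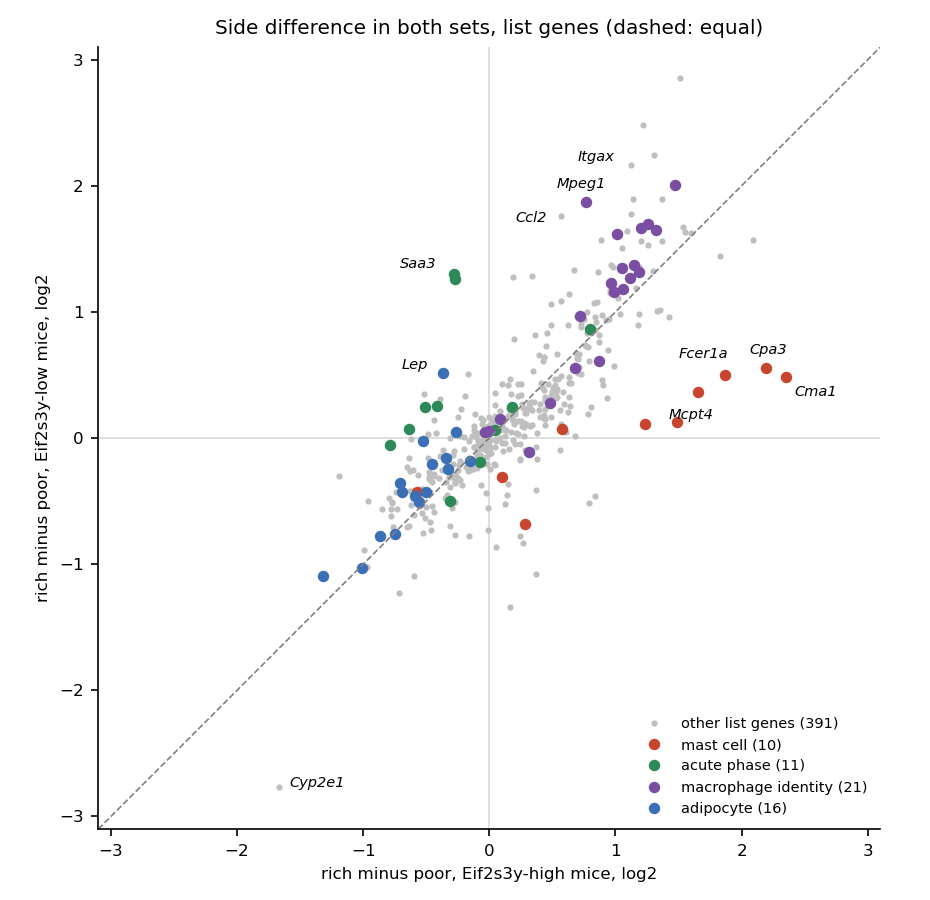
Macrophage-rich minus macrophage-poor difference in Eif2s3y-high mice (horizontal axis) against that in Eif2s3y-low mice (vertical axis), both in log2, for list genes. Each point is a gene, the dashed line marks equal differences, and 4 lists are coloured. Mast cell genes such as Cma1 (2.35 and 0.49) lie to the right of the line and Saa3 (-0.28 and 1.30) far above it.

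A further 47 Eif2s3y-high mice, whose arrays carried epididymis transcripts, entered neither the score nor the sides described above, and 15 a side were compared in the same way. In them 10.1% of genes were higher and 3.41% lower, from fewer mice. Of the 1162 genes higher there, 1023 (88.0%) were also higher in the mice described above, which is 44.8% of the genes higher in those. Of the 391 genes lower there, 321 (82.1%) were also lower here, or 12.7% of those lower here. The 139 genes at least 2-fold higher included 127 called higher in this set, and the 18 at least 2-fold lower included 12 called lower. Mast cell genes were higher again: Cma1 by 2.05 ± 0.28, Cpa3 by 1.86 ± 0.27, Mcpt4 by 1.37 ± 0.20 and Fcer1a by 1.53 ± 0.21, and 6 of 10 list members were called. Thbs4 and Serpinb9b were higher by 1.90 ± 0.35 and 2.44 ± 0.34. Lists lower above had fewer calls in these mice, 9 of 16 adipocyte, 5 of 14 fatty acid synthesis and 1 of 15 endothelial genes. Upb1, Aass and Acsm3, among the largest falls above, were not called in these mice, at -0.16, -0.25 and -0.25. The interaction between this set and the mice described above called 9 genes more positive and 1 more negative in the latter, a fit added after the data were seen.

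**Figure D5:**
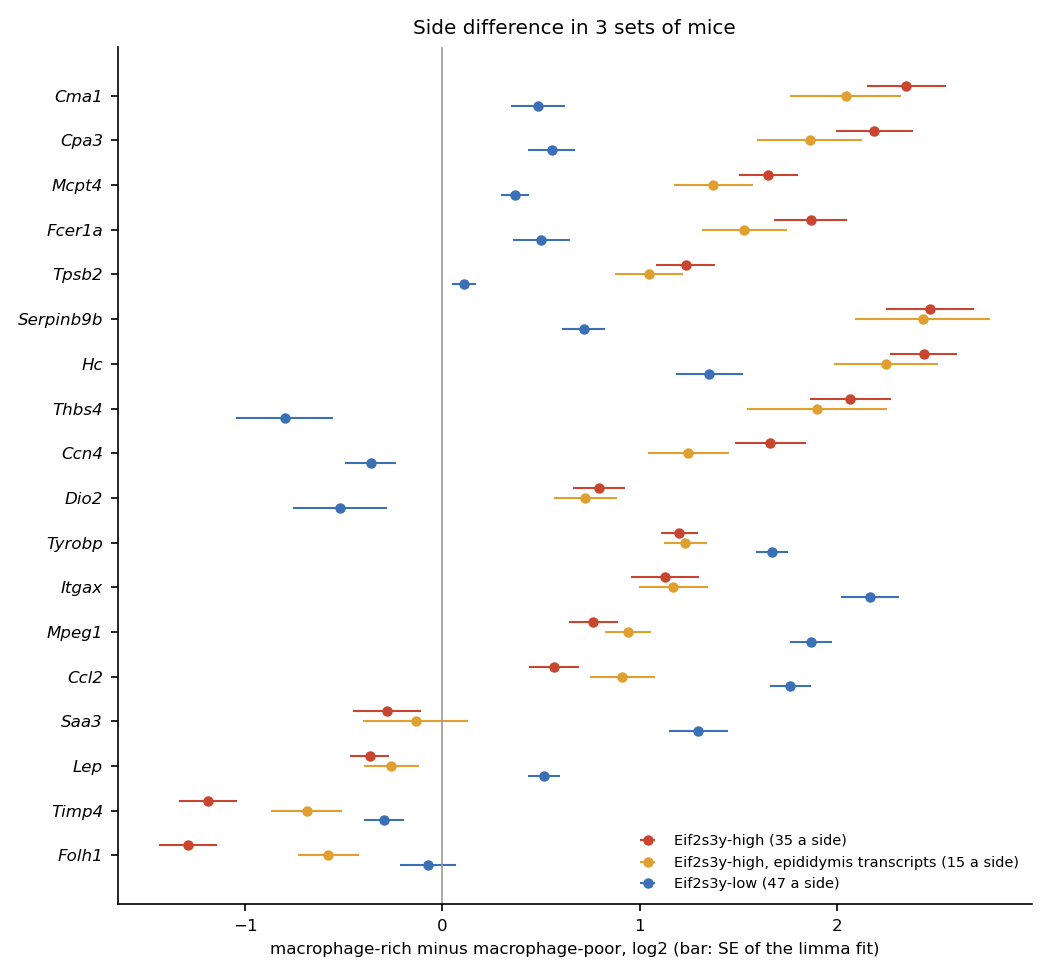
Macrophage-rich minus macrophage-poor difference in log2 (horizontal axis, bars are SE of the limma fit) of 18 genes (rows) in 3 sets of mice: Eif2s3y-high without epididymis transcripts (35 a side), Eif2s3y-high with them (15 a side) and Eif2s3y-low (47 a side). Thbs4 is at 2.07, 1.90 and -0.80 in these sets and Ccl2 at 0.57, 0.91 and 1.76.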

How the data were processed

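Fat RNA of 295 mice was measured, 1 two-colour array a mouse, against a pool of all the RNAs. The deposited values are log ratios for 23387 probes, made by the authors and taken here as log10 with no base, centring or direction stated in the sources used here; they run from -2 to 2, and 1.02212% were missing. The labels' protocols put the mouse in Cy3 and the pool in Cy5, and positive values were read as higher in the mouse, since Eif2s3y is near or above 0 in one set of mice and far below 0 in the other. That direction does not bear on which genes vary with the markers. The series text speaks of 295 mice and the sample text of 330.

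Values were multiplied by log2 of 10. Probes measured on at least 90% of arrays were kept (22894), gaps stayed missing, and 22890 probes were tested, without the 4 that chose the mice. Sides were compared with limma 3.58.1 (R 4.3.3; lmFit and eBayes, Benjamini-Hochberg adjustment over the probes), with an interaction contrast between sets of mice, and errors printed with ± are the SE of that fit unless named otherwise. A gene is its most variable probe with 1 symbol over all arrays. The platform annotation gives 1 symbol for 13644 probes, several for 48 and none for 9695. A gene is called at an adjusted p under 0.05. The number of arrays limits the precision, and each array is 1 mouse. The fit was tested on simulated data.

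Named genes were the 12 with the largest called differences in each direction, the 3 of smallest p in each list, a panel of metabolic and macrophage genes, and the list genes with the smallest interaction p. Other genes were named after their values were seen. Members, lists and named genes were chosen with earlier results of these data known. Alternatives changed the score, sides, centring, filter, gaps, variance moderation and covariates.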

Additional observations from a re-analysis of the deposited data

Results flagged for a closer look

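Of the named genes, those below had a macrophage-rich minus macrophage-poor difference that differed between Eif2s3y-high and Eif2s3y-low mice by the interaction in limma at an adjusted p under 0.05. Each value is the difference in Eif2s3y-high mice minus that in Eif2s3y-low mice, in log2. The Eif2s3y-low sides lay further apart in Adgre1 and Cd68, by 1.98 and 1.66 against 1.31 and 1.26. They also lay at lower levels, with macrophage-rich medians of 0.32 and 0.16 against 1.04 and 0.85. A fit of slopes per log2 unit of the markers was added after the data were seen. That fit takes the gap into account but compares slopes over different ranges of marker levels. In it 40 of 51 genes were called with the same sign, 7 had the same sign without a call (Blnk, H2-Aa, H2-DMb1, H2-DMb2, Il7r, Itgax and Pdk4) and 4 the opposite sign without a call (Cd83, Cyp2e1, Slc11a1 and Tyrobp).

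The mast cell genes Cma1 (1.87), Cpa3 (1.64), Fcer1a (1.36), Mcpt4 (1.29) and Tpsb2 (1.12) had more positive differences in Eif2s3y-high mice. More positive in Eif2s3y-high mice were also the matrix genes and matrix proteases Thbs4 (2.87), Ccn4 (2.03), Lum (0.48), Mmp13 (0.46), Mmp2 (0.42), Loxl1 (0.42) and Bgn (0.39). The resident macrophage gene Stab1 (0.44) was more positive too, unlike the other macrophage genes named below. So were Serpinb9b (1.76), Dio2 (1.31), Cyp2e1 (1.10), Hc (1.09), Wt1 (1.03), Mbp (0.42) and Akt1 (0.24); for Cyp2e1 this means a smaller fall, -1.67 against -2.77.

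Differences were more negative for the myeloid and lymphoid genes Ccl2 (-1.20), Mpeg1 (-1.10), Itgax (-1.04), Il7r (-0.94), Blnk (-0.75), H2-DMb1 (-0.57), Tyrobp (-0.47), Cd83 (-0.45), H2-DMb2 (-0.45), Slc11a1 (-0.44) and H2-Aa (-0.41). A more negative value was also found for the acute phase genes Saa3 (-1.58), Saa1 (-1.53), Orm2 (-0.76), Orm1 (-0.73) and Steap4 (-0.71). It was found again for the adipocyte and metabolic genes Aass (-1.22), Rbp7 (-1.10), Upb1 (-1.07), Lep (-0.88), Sc5d (-0.52), Pdk4 (-0.50), Ehhadh (-0.46) and Lpin1 (-0.35). The remaining genes with a more negative difference were Folh1 (-1.22), Egf (-1.16), Timp4 (-0.89), Cnksr1 (-0.89), Hbb-b1 (-0.87), Alas2 (-0.58) and Flt1 (-0.36). For genes higher on both macrophage-rich sides, such as Tyrobp (1.20 and 1.67), a negative value means a smaller rise in Eif2s3y-high mice.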

How the results depend on the processing

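No paired analysis was possible because the labels put all mice in 1 group and give no numbers shared between the sides. Of 147 named genes tested under 19 settings, 84 were called in every setting with the same direction; over all genes and settings, 2619 results kept direction and side of the threshold, 139 lost the call, 11 gained one and 24 changed sign. Within the lower, middle and upper tertile of mouse number, which hold fewer mice, 1428, 1431 and 888 genes were higher and 1318, 1275 and 627 lower, against 2283 and 2533. Read as log2, the deposited values gave 0 genes at least 2-fold higher and 0 at least 2-fold lower. Without the 7 macrophage-poor mice of lowest score, 2081 genes were higher and 2256 lower. Those 7 mice held the lowest Tyrobp values of their side, -0.70 or less against -0.51 for the next mouse. The size of such a difference therefore rests in part on them. With the epididymis set in place of the Eif2s3y-low mice the interaction called 9 and 1 genes; that set, the interaction of slopes per log2 unit of the markers and the fit without the lowest-scoring macrophage-poor mice were added after the data were seen. Signs changed for the following, slopes being per SD of the score and not per side, and the cause was not tested. Ces5a was at 0.058 (within the middle tertile of mouse number) and 0.32 (within the upper tertile of mouse number), against -0.16. Lcn5 was at 0.013 (within the middle tertile of mouse number) and 0.56 (within the upper tertile of mouse number), against -0.11. Cpb1 was at -0.44 (within the upper tertile of mouse number), against 0.42. Saa3 was at 0.013 (slope per SD of the score), 0.062 (within the lower tertile of mouse number) and 0.066 (Lep as a covariate), against -0.28. Saa1 was at 0.014 (slope per SD of the score), 0.050 (within the lower tertile of mouse number) and 0.067 (Lep as a covariate), against -0.27. Cyp11b1 was at -0.039 (within the upper tertile of mouse number), against 0.25. Wt1 was at -0.0065 (within the lower tertile of mouse number), against 0.25. Cd3d was at -0.026 (B cell list score as a covariate), against 0.56. Prss1 was at -0.0025 (Adgre1 alone), -0.097 (Cd68 alone), -0.0094 (score cut at its median), -0.036 (outer quartiles of the score), -0.42 (within the upper tertile of mouse number) and -0.082 (without mice of Eif2s3y log2 ratio below 0.5), against 0.042. Pvalb was at 0.017 (Cd68 alone), 0.018 (within the lower tertile of mouse number), 0.031 (Lep as a covariate) and 0.011 (B cell list score as a covariate), against -0.051. Of these, Wt1 and Cd3d were called in the comparison above.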
